A study of Mus musculus with 468 samples.

Results

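The circadian clock genes measured here were 10 transcripts of the core loop and its direct output in adipose tissue, namely Arntl, Npas2, Per1, Per2, Per3, Nr1d1, Nr1d2, Dbp, Tef and Ciart. They were chosen by gene symbol, and each of the 10 symbols matched a single row among the 23180 genes of the deposited count table. All 10 were also among the 18380 genes that passed the filter on low counts, which required at least 10 counts in at least 50% of libraries. The study profiled adipose tissue, the gonadal fat pad in the study's methods, of Diversity Outbred mice, an outbred stock bred from several inbred founder strains so that every animal carries its own mixture of founder haplotypes. The diet was rich in fat and sugar for all 468 animals, with 45 percent fat in the labels, and each mouse contributed 1 library, so the libraries formed a single group with no untreated arm. The study used animals of both sexes, but the labels give neither the sex, the age nor the generation of a mouse, and the hour at which each fat pad was taken is likewise absent from them. The labels number the mice (21 to 560) and the libraries (219 to 701), and the 2 numbers were nearly unrelated to each other (r = -0.0148).

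The mammalian clock is a feedback loop of transcription that runs in most cells and turns over about once a day. ARNTL (also called BMAL1) pairs with CLOCK or its relative NPAS2, binds E-box sequences and switches on the Per and Cry genes, whose proteins later return to the nucleus and block the same pair. In a second loop, the E-box driven receptors NR1D1 and NR1D2 (REV-ERB alpha and beta) repress Arntl and Npas2 through RORE sequences. DBP and TEF are PAR bZIP factors, also E-box driven, which act through D-box sequences on output genes and on some Per genes, and CIART is a further E-box driven repressor of the ARNTL complex. In fat, the clock is known for timing lipolysis, lipid storage and the release of adipokines. Because the activators and their targets peak at different times of day, tissue taken at different points of the cycle shows one set high where the other is low.

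The promoters below show these elements in the genes whose levels moved together or apart in these libraries. RefSeq promoter sequences on GRCm38.p6, each with 250 bases before and 50 bases after a transcription start, were found for 9 of the 10 genes, 12 windows in all. An E-box was searched as CACGTG, a D-box as TTATGTAA or TTACGTAA, a cAMP response element as TGACGTCA and an RORE by its published consensus, on both strands, with no overlap between the motifs found. The capitals mark those matches. Ciart, with its E-boxes, is given at chr3:95882179-95882478 (minus strand), the upstream Per1 window at chr11:69098699-69098998 (plus strand), the upstream Tef window at chr15:81802423-81802722 (plus strand), Per3, with its D-boxes, at chr4:151044616-151044915 (minus strand), and the downstream Arntl window, with its RORE, at chr7:113207261-113207560 (plus strand).
Ciart: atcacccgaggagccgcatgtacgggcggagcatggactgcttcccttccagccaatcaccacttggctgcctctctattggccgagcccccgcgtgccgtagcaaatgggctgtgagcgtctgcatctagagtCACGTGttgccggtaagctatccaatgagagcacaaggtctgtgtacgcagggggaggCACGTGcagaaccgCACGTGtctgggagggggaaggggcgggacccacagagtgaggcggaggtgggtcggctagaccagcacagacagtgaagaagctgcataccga
Per1: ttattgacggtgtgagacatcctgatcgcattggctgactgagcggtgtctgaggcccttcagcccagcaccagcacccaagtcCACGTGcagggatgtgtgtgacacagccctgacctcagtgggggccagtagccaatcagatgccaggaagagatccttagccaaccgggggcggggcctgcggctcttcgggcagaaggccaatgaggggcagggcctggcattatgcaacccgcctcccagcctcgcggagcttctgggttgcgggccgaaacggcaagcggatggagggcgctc
Tef: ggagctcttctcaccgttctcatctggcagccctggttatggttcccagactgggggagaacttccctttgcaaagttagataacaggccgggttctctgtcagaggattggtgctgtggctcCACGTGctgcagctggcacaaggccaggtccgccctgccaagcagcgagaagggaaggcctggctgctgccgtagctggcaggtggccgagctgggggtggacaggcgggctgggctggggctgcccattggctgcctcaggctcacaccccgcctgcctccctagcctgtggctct
Per3: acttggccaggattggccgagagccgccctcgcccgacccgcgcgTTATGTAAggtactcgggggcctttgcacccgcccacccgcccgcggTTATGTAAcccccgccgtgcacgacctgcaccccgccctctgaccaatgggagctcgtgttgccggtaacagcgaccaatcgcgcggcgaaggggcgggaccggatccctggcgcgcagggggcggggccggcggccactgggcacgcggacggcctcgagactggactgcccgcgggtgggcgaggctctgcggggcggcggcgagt
Arntl: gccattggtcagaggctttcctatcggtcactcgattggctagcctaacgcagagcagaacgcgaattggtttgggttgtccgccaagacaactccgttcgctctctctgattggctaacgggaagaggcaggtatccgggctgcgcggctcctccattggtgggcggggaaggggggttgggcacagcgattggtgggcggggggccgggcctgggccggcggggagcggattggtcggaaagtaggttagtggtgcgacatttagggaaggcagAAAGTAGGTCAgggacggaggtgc

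The 3 Ciart E-boxes began 116, 58 and 44 bases before the start, the Per1 E-box 166 bases before it and the Tef E-box 127 bases before it, and a further Tef window held one 138 bases before its own start. Of all 32851 RefSeq mouse promoters of that length, 7.15% held this E-box. Both Per3 D-boxes, 205 and 158 bases before the start, read TTATGTAA, and 1.06% of all promoters held either D-box spelling. The Arntl RORE began 26 bases after the start, and 0.384% of all promoters held one. The cAMP response element was in none of the 12 windows and in 1.79% of all promoters. These letters were not in the windows used for Npas2, Nr1d1, Nr1d2 and Dbp. A match describes the sequence and was not tested for use in these mice.

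On GRCm38, the build in the submitters' processing notes, Arntl lay at chr7:113207465-113314126 (plus strand), Npas2 at chr1:39193731-39363236 (plus), Per1 at chr11:69095217-69109960 (plus), Per2 at chr1:91415982-91459324 (minus) and Per3 at chr4:151003652-151044665 (minus). Nr1d1 lay at chr11:98767932-98775333 (minus), Nr1d2 at chr14:18204054-18239127 (minus), Dbp at chr7:45705088-45710203 (plus), Tef at chr15:81802421-81826863 (plus) and Ciart at chr3:95878503-95882251 (minus). Exons of 4 of them overlap exons of a gene on the opposite strand. Dbp shares 539 bases with Sphk2, Nr1d1 shares 263 bases with Thra, Tef shares 193 bases with Gm17597 and Arntl shares 33 bases with Gm45355. The deposited values are expected counts, in which a read that fits several transcripts is split among them, and no value of Dbp or Nr1d1 was a whole number (0% of 468 libraries), against 95.1% for Tef and 100% for the other 7 genes. Whether strand was used in counting is not stated, so Dbp and Nr1d1 carry some uncertainty from their neighbours. The correlation with the neighbour over libraries was 0.248 for Dbp with Sphk2 and 0.317 for Nr1d1 with Thra, in log2 CPM. The Thra value is close to the weaker correlations of Nr1d1 within the clock given below. Thra had r = 0.238 with Arntl, opposite in sign to that of Nr1d1 with Arntl. Sphk2 was nearly unrelated to Arntl (r = -0.0689), to which Dbp was strongly opposed. The part of the neighbours in the values of Nr1d1 and Dbp was not tested.

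Total counts per library ran from 35298813 to 137760410 (median 82043357), and log10 total count had correlations between -0.103 (Ciart) and 0.0893 (Npas2) with the 10 genes. The TMM factors, which scale library totals to a common level, had larger correlations, between -0.267 (Tef) and 0.181 (Dbp). Adipocyte markers were present in every library, the summed level of Adipoq, Plin1, Fabp4, Lipe, Cidec, Pparg, Car3 and Lep running from 10084 to 43063 CPM with a median of 29521 CPM. Macrophage markers, 8 of 8 past the filter, summed to between 282 and 5044 CPM with a median of 900 CPM. In whole tissue, fewer cells of a type and less RNA per cell cannot be told apart.

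The activators differed in how widely they ranged. Arntl had a lowest level of 5.58 CPM (counts scaled to a common library total with TMM factors), a median of 28.9 CPM and a highest of 54.9 CPM over the 468 libraries. Npas2 had a lowest level of 0.231 CPM, a median of 11.03 CPM and a highest of 48.3 CPM. The lowest Npas2 library held 11 counts and stood apart from the others in the plot of levels. Between the libraries at percentiles 10 and 90, Arntl spanned 2.10-fold and Npas2 3.63-fold.

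Among the period genes, whose proteins close the loop, Per1 had a lowest level of 23.4 CPM, a median of 95.03 CPM and a highest of 210.3 CPM. Per2 had a lowest level of 8.64 CPM, a median of 33.1 CPM and a highest of 120.1 CPM. Per3, the period gene least needed for a running clock, had a lowest level of 7.18 CPM, a median of 22.1 CPM and a highest of 119.0 CPM. The upper tail was longer for Per3 than for Per1, and the highest library of all was 16.6-fold above the lowest for Per3 and 8.98-fold for Per1.

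Of the repressor receptors, Nr1d1 was the wider in range. Nr1d1 had a lowest level of 6.59 CPM, a median of 55.7 CPM and a highest of 214 CPM, and its span between those percentiles was 5.49-fold. Nr1d2 had a lowest level of 11.4 CPM, a median of 38.2 CPM and a highest of 144 CPM, with a span of 3.18-fold. Of the output genes, Dbp had a lowest level of 0.532 CPM, a median of 3.33 CPM and a highest of 45.5 CPM, with a span of 5.40-fold. Tef, in the same family, was far more abundant and far steadier, with a lowest level of 34.0 CPM, a median of 64.8 CPM, a highest of 254 CPM and a span of 2.22-fold. Ciart was the scarcest, with a lowest level of 0.283 CPM, a median of 0.979 CPM and a highest of 7.01 CPM. Its median library held 82 counts, and counting error made up 3.14% of its variance in CPM, against 0.550% or less for the other 9 genes.

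**Figure D1:**
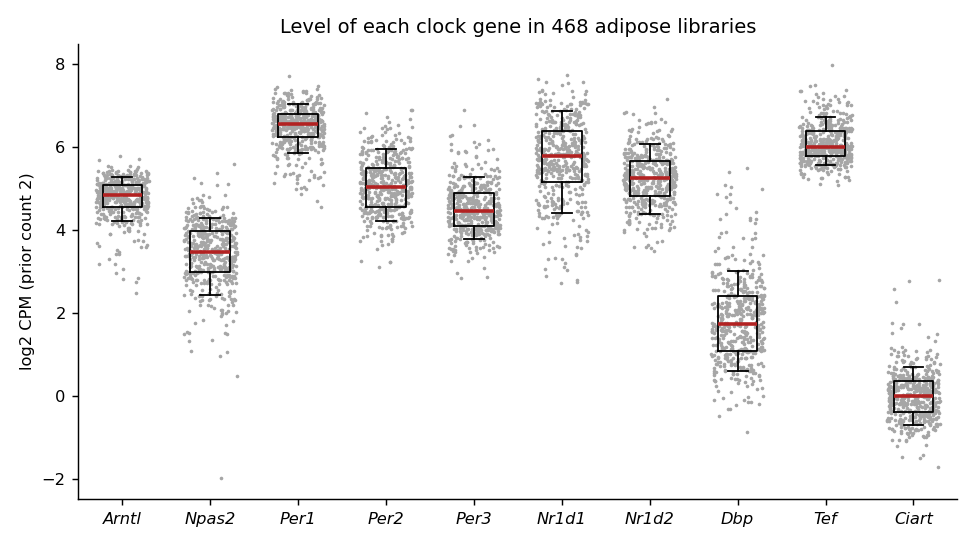
Level of each of the 10 clock genes in log2 CPM (prior count 2, vertical axis) in 468 adipose libraries. Grey points are libraries, the red line is the median, the box spans the quartiles and the whiskers percentiles 10 to 90. Dbp and Nr1d1 are the widest, and the lone Npas2 point near -2 is the library with 11 counts.

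Levels of different genes were compared per kilobase of exon. The medians were 18.1 CPM per kb for Nr1d1, 16.9 for Per1, 8.23 for Tef, 7.06 for Nr1d2, 5.66 for Per2, 3.84 for Arntl, 2.30 for both Per3 and Npas2, 1.11 for Dbp and 0.433 for Ciart. The ranges overlapped between neighbours in this order: Dbp reached 15.2 CPM per kb in its highest library, above the Tef median, and Nr1d1 fell to 2.14 in its lowest.

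Against all 18380 genes, the SD of log2 CPM was 1.04 for Dbp, which was larger than that of 84.2% of genes, and 0.96 for Nr1d1, larger than that of 81.4%. Npas2 had an SD of 0.80 (73.3%). The steadiest were Tef, with an SD of 0.46 (50.3%), Arntl, with 0.48 (51.7%), and Per1, with 0.50 (53.6%), close to the median SD of 0.46 over all genes. The median SD of the 10 clock genes was 0.63. In the biological coefficient of variation of CPM, which leaves out counting error, Dbp stood at 1.09, against 0.327 for the median gene.

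Some single libraries at the ends of these ranges had 1 arm of the clock high and the other low, relative to other mice. The library of mouse 144 had both the lowest Arntl of all (5.58 CPM) and the highest Dbp (45.5 CPM), with Nr1d2 at 114 CPM, Per3 at 90.6 CPM and Tef at 165 CPM. Mouse 150 was the reverse for several genes, with the highest Arntl (54.9 CPM), Npas2 at 34.5 CPM, Dbp at 1.13 CPM, Nr1d2 at 16.5 CPM and Per2 at 9.43 CPM. Its Per1 (98.3 CPM) and Ciart (0.907 CPM) were nearer the middle, at ranks 205 and 264 of 468 libraries. Mouse 222 held the lowest Npas2 (0.231 CPM) together with the highest Per2, Per3 and Tef, and its Dbp was 42.2 CPM. In mouse 349, by contrast, the highest Npas2 came with the highest Per1 (210.3 CPM), while Dbp was 1.59 CPM and Per3 11.8 CPM. These libraries were picked for their extreme values and carry no test.

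All 45 pairs of the 10 genes were correlated over the 468 libraries in log2 CPM, with two-sided permutation tests of 100000 resamples, whose smallest possible p is 1e-05. The p-values were not adjusted over the pairs, and they treat the mice as unrelated. Pearson's r was above 0 in 29 pairs and below 0 in 16, and 40 pairs had p below 0.05 for both r and Spearman's rho. The activators were negatively correlated with nearly every other member: 15 of the 16 pairs of Arntl or Npas2 with another gene had r below 0, with a median of -0.470, and 14 of these passed for both measures. The exception in sign was Npas2 with Per1 (r = 0.0409, p = 0.377, rho = 0.0909, p = 0.0493). Among the 8 genes that are not activators, 27 of 28 pairs had r above 0, with a median of 0.393, and 25 of these passed for both measures. For scale, the median absolute r with the other 18379 genes was 0.0694 for Arntl, the lowest of the 10 genes, and 0.125 for Per1, the highest. With 468 libraries a small r passes: Dbp with log10 total count had r = -0.0960 (p = 0.0383). The counts of passing pairs are to be read beside these values, and the share of all gene pairs that would pass was not computed.

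Arntl and Npas2, which share the RORE and REV-ERB branch of regulation, rose and fell together, with r = 0.794 and rho = 0.751 (each p = 1e-05). Without the 2 libraries farthest from the Arntl median r was 0.794, and within 5 blocks of consecutive mouse numbers it lay between 0.697 and 0.881. Dbp was the gene most opposed to both. Its r was -0.764 with Arntl (rho = -0.693, each p = 1e-05) and -0.778 with Npas2 (rho = -0.761, each p = 1e-05). Within mouse number blocks these ran from -0.805 to -0.665 for Arntl and from -0.826 to -0.648 for Npas2, and without the 2 farthest libraries they were -0.750 and -0.773. Nr1d2 (r = -0.679, rho = -0.653), Per3 (r = -0.666, rho = -0.560) and Tef (r = -0.647, rho = -0.524) were opposed to Arntl nearly as strongly (each p = 1e-05), Nr1d1 less so (r = -0.428, rho = -0.439, each p = 1e-05).

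The tightest pair of all was Per3 with Tef, at r = 0.865 and rho = 0.836 (each p = 1e-05), with 0.847 to 0.885 within mouse number blocks and 0.858 without the 2 farthest libraries. Next came the paralogous receptors, Nr1d1 with Nr1d2, at r = 0.827 and rho = 0.815 (each p = 1e-05; 0.780 to 0.861 within blocks, 0.822 without the 2 farthest). Per3 with Dbp (r = 0.703, rho = 0.627) and Dbp with Tef (r = 0.670, rho = 0.571) completed a group of Per3, Dbp and Tef (each p = 1e-05). Nr1d2, but not Nr1d1, was close to that group, with r = 0.602 to Per3, 0.633 to Tef and 0.573 to Dbp, where Nr1d1 had 0.306, 0.337 and 0.303.

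**Figure D2:**
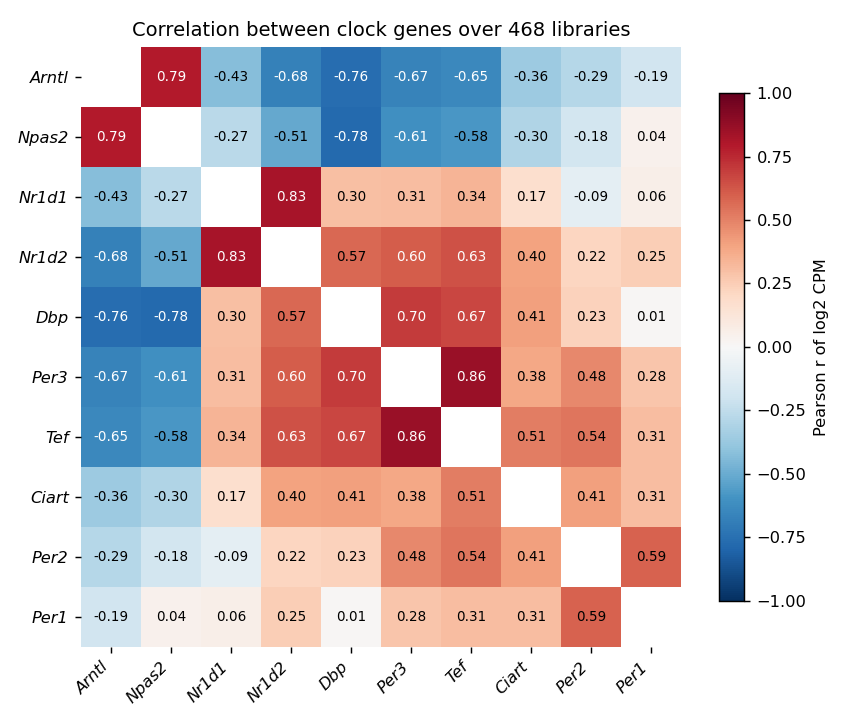
Pearson r of log2 CPM for each pair of the 10 clock genes over 468 libraries, red above 0 and blue below 0, with the value in each cell. Arntl and Npas2 (r = 0.79) form a block that is blue against Dbp, Per3, Tef and Nr1d2, while Per1 is close to 0 against Dbp (0.01) and Nr1d1 (0.06).

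Per1 and Per2 were less closely tied to Arntl (r = -0.190 and -0.288) and to Dbp (0.0136 and 0.228) than Per3 was. They were correlated with each other at r = 0.593 and rho = 0.607 (each p = 1e-05), and within mouse number blocks r lay between 0.525 and 0.673. Per1 had r = 0.0136 with Dbp (p = 0.771, rho = -0.0548, p = 0.235) and r = 0.0581 with Nr1d1 (p = 0.211, rho = 0.0968, p = 0.037), so its rank correlation with Nr1d1 was weak and no relation to Dbp was detected in 468 libraries. Per2 was close to Tef (r = 0.538) and Per3 (0.481) as well, and Per1 had r = 0.310 with Tef and 0.276 with Per3, each with p = 1e-05. Per2 with Nr1d1 was the only pair of non-activators with r below 0 (r = -0.0942, p = 0.0414, rho = -0.0307, p = 0.508), and its sign changed between blocks of mice. Ciart was moderately correlated with Tef (r = 0.510), Per2 (0.411), Dbp (0.407) and Nr1d2 (0.402), each with p = 1e-05.

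**Figure D3:**
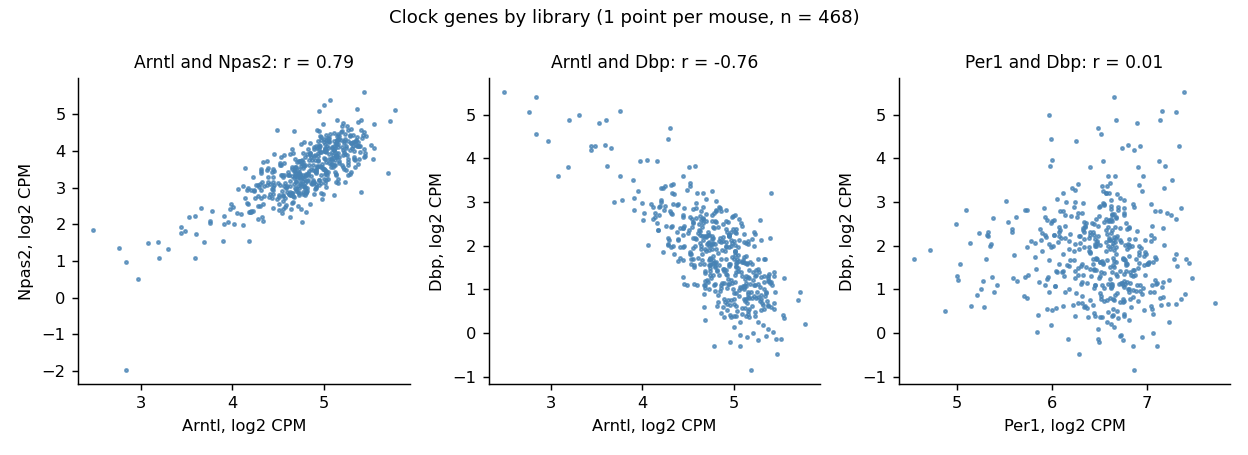
Log2 CPM of Npas2 against Arntl (left), Dbp against Arntl (middle) and Dbp against Per1 (right), 1 point per mouse, n = 468. Npas2 rises with Arntl (r = 0.79) and Dbp falls with it (r = -0.76), each with a thin tail of libraries at low Arntl, while Dbp shows no slope on Per1 (r = 0.01).

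To place these relations among all transcripts, counts of every gene were regressed on the log2 CPM of Arntl with edgeR's quasi-likelihood test, with mouse number and library number in the model, and p-values were adjusted over all 18379 genes tested by the Benjamini-Hochberg method. A slope of -1 means a fall by 1 log2 unit for each doubling of Arntl. Of all genes, 11.9% rose and 19.6% fell with Arntl at an adjusted p below 0.05. Among the other 9 clock genes, 1 rose and 8 fell. Npas2 was the riser, with a slope of 1.29 ± 0.05 (SE, adjusted p = 2.61e-88), the number 95 of all genes by size of slope. Dbp had a slope of -1.66 ± 0.06 (adjusted p = 6.24e-103), number 53 by size, a change of more than 1 log2 unit per doubling of Arntl.

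The receptors and the remaining output genes followed with smaller slopes. Nr1d2 had a slope on Arntl of -0.89 ± 0.04 (adjusted p = 3.56e-64), Per3 -0.85 ± 0.04 (adjusted p = 3.47e-66) and Nr1d1 -0.83 ± 0.08 (adjusted p = 1.8e-21). Tef had -0.62 ± 0.03 (adjusted p = 8.53e-58) and Ciart -0.51 ± 0.05 (adjusted p = 1.58e-18). The slopes of Per2 (-0.34 ± 0.06, adjusted p = 5.25e-07) and Per1 (-0.17 ± 0.04, adjusted p = 0.00187) were the shallowest. The median absolute slope of the 9 genes was 0.83, against 0.064 over all genes tested, with the members chosen for belonging to one loop.

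Regressed on Dbp in the same way, 26.6% of all genes rose and 16.7% fell. Among the clock genes 6 rose, 2 fell and Per1 did not pass. Npas2 (slope -0.57 ± 0.02, adjusted p = 8.11e-81) and Arntl (-0.34 ± 0.015, adjusted p = 3.94e-76) fell as Dbp rose. Per3 (0.42 ± 0.02, adjusted p = 2.78e-76), Nr1d2 (0.36 ± 0.02, adjusted p = 2.29e-47), Tef (0.30 ± 0.01, adjusted p = 2.74e-66), Nr1d1 (0.30 ± 0.04, adjusted p = 2.98e-14), Ciart (0.27 ± 0.02, adjusted p = 7.98e-25) and Per2 (0.15 ± 0.03, adjusted p = 4.61e-06) rose with it. The slope of Per1 on Dbp was 0.0043 ± 0.020 (adjusted p = 0.887), and its interval of 1.96 SE on either side ran from -0.036 to 0.044, below the interval of Per2, the next smallest slope (0.091 to 0.20). Here and for Arntl, the same libraries supply the regressor and the regressed gene, and every value is a description of covariation between mice.

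**Figure D4:**
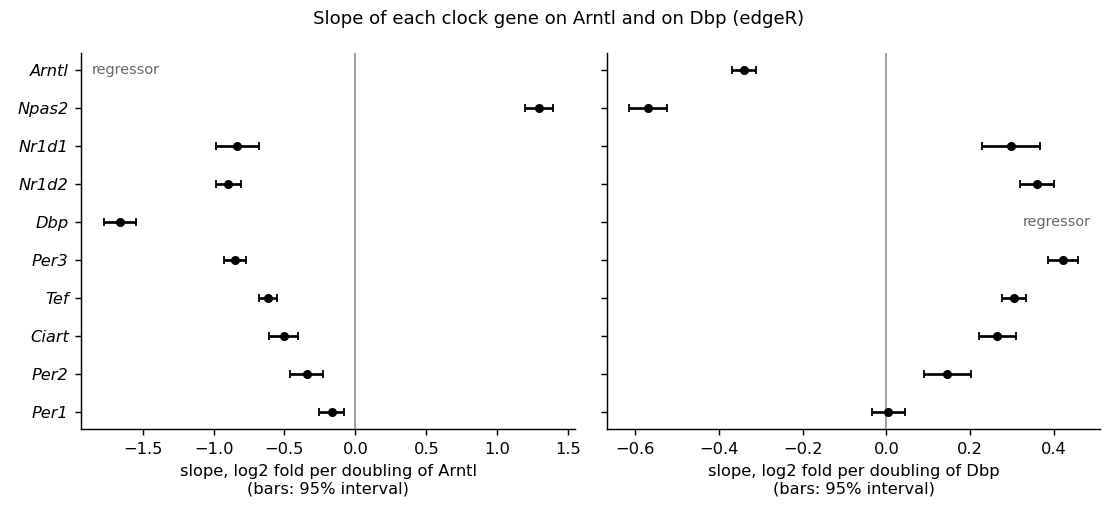
Slope of each clock gene, in log2 fold per doubling, on Arntl (left) and on Dbp (right) from edgeR, with bars of 1.96 SE on either side and 468 libraries. Npas2 alone is right of 0 on Arntl, Dbp is farthest left (-1.66), and Per1 on Dbp spans 0.

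Over 50% of the variance of 8 of the genes was shared. A linear fit on the other 9 genes accounted for 87.3% of the variance of Nr1d2 in log2 CPM, 81.0% of that of Tef, 80.1% of Nr1d1, 79.4% of Per3, 76.9% of Arntl, 74.3% of Dbp and 73.0% of Npas2. Less was shared for Per2 (58.2%), Per1 (47.1%) and Ciart (36.6%). What remained after the fit had an SD of 0.20 for Tef and 0.23 for both Arntl and Nr1d2, and of 0.53 for Dbp. On the first principal component of the standardised levels, which held 51.4% of the variance, Arntl and Npas2 lay on one side and the other 8 genes on the other. The second component, with 17.0%, set Nr1d1 (r = 0.454 with the component) against Per1 (-0.733) and Per2 (-0.755).

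Placed by angle in the plane of those 2 components, counted from the first, the genes came in the order Nr1d1 (139 degrees), Dbp and Nr1d2 (both 164), Per3 (186), Tef (191), Ciart (209), Per2 (237), Per1 (246), Npas2 (338) and Arntl (347). Dbp and Nr1d2 changed places in the deposited variance-stabilised values, after marker scores and in libraries without Y chromosome counts, and Per3 and Ciart did so in libraries with them. In all 5 versions computed Nr1d1 came first and Per2, Per1, Npas2 and Arntl last, in that order. The component analysis was added after the data had been seen. An angle here is a pattern of covariation between mice and not a time of day, and the direction around the plane is arbitrary.

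Other genes of the clock loop, 15 in a fixed list, were set against the same anchors. On Arntl, 4 rose and 5 fell, and on Dbp, 8 rose and 4 fell, beside the same shares of all genes as above, with median slopes of -0.035 and 0.017. The repressor Nfil3, which competes with DBP and TEF for D-boxes, rose with Arntl (slope 0.69 ± 0.06, adjusted p = 2.53e-24) and fell with Dbp (-0.29 ± 0.03, adjusted p = 3.44e-20). Cry1, a partner of the period proteins with RORE control of its own, rose with Arntl (0.52 ± 0.04, adjusted p = 3.61e-26) and had its strongest tie to Nr1d1 (r = -0.646). Clock, the dimer partner of ARNTL, rose with Arntl by a slope of only 0.16 ± 0.02 (adjusted p = 1.04e-14). Bhlhe41, an E-box repressor, fell with Arntl (-0.54 ± 0.06, adjusted p = 2.86e-16) and rose with Dbp (0.37 ± 0.03, adjusted p = 1.96e-37). Hlf, the third PAR bZIP gene, was closest to Tef (r = 0.519) and did not pass on Arntl (-0.12 ± 0.06, adjusted p = 0.12).

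Of 9 genes listed as clock-controlled, none rose and 3 fell with Arntl, against 11.9% and 19.6% of all genes, and 3 rose and 1 fell with Dbp, against 26.6% and 16.7%, so as a list they were called about as often as any gene. Their median slope was -0.055 on Arntl (all genes -0.013) and 0.012 on Dbp (all genes 0.0056). Wee1, a cell cycle kinase with E-boxes in its promoter, fell with Arntl (-0.33 ± 0.05, adjusted p = 4.95e-09) and rose with Dbp (0.14 ± 0.02, adjusted p = 4.6e-08). Usp2, a deubiquitinase, did the same (-0.24 ± 0.06, adjusted p = 0.000802, and 0.18 ± 0.03, adjusted p = 4.27e-09). Nampt, the NAD salvage enzyme often described as clock output and named here after its values were seen, had slopes of 0.058 ± 0.042 on Arntl and -0.022 ± 0.020 on Dbp and passed for neither (adjusted p = 0.297 and 0.368), though its r with Tef was 0.397.

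Per1 and Per2 are also direct targets of the glucocorticoid receptor, and their levels went with a fixed list of 6 genes induced by glucocorticoids (Fkbp5, Tsc22d3, Zbtb16, Sgk1, Errfi1 and Dusp1). The list's mean standardised level had r = 0.761 with Per1 (rho = 0.750, each p = 1e-05), 0.753 without the 2 farthest libraries. For Per2, r was 0.499 (rho = 0.503, each p = 1e-05), no higher than its r of 0.536 with the mean level of the clock-controlled list and close to its 0.462 with the other loop genes. Per1 had 0.5005 with the clock-controlled list, which holds Klf9, and 0.235 with the other loop genes. The other 8 clock genes had r between -0.0877 (Nr1d1) and 0.188 (Tef). Of the genes in these fixed lists, Per1 was closest to Klf9 (r = 0.671), a receptor target in the clock-controlled list, Errfi1 (0.669) and Sgk1 (0.653). On Arntl, none of the 6 rose and 1 fell, and on Dbp, none rose and 1 fell. Of all genes, 11.9% rose and 19.6% fell on Arntl, and 26.6% rose and 16.7% fell on Dbp. Immediate early genes, 7 in the list, had a mean level with r = -0.0263 to Per1 (p = 0.569). Within libraries with and without Y chromosome counts that r was 0.0484 and 0.164. Of the 7, none rose and 1 fell with Arntl, and 2 rose and none fell with Dbp. The glucocorticoid and immediate early lists were 2 of 17 measures set against each of the 10 genes, 170 relations in all.

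Outside the members and the lists, the genes most like Arntl among 9467 genes averaging 10 CPM or more included Leo1 (r = 0.565), Dapk1 (0.502), Dtx4 (0.488) and Tmem185a (0.386). The most opposed included Tspan4 (r = -0.318), Jarid2 (-0.306), Aff1 (-0.297) and Spsb1 (-0.290). For Dbp, the closest were Vav2 (r = 0.394), Tspan4 (0.376), Usp6nl (0.370), Map7 (0.321) and Bcar1 (0.319), and the most opposed included Dapk1 (-0.594), Sh3pxd2a (-0.457), Elp4 (-0.425) and Leo1 (-0.421). Dapk1 and Leo1 appeared on opposite sides for the activator and the output gene, and Tspan4 likewise. Arntl and Dbp were themselves opposed in these libraries, so the opposite sides are not a separate observation. None of these values reached the correlation of Arntl with Npas2 or with Dbp.

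Markers of several cell types moved with some clock genes. The mean standardised level of the 8 macrophage markers had r = -0.397 with Tef (rho = -0.373), -0.298 with Per3 (rho = -0.274) and -0.270 with Nr1d1 (rho = -0.265), each p = 1e-05. With Arntl r was -0.0744 (p = 0.107) but rho was -0.193 (p = 3e-05), and with Dbp r was 0.0846 (p = 0.0657) and rho 0.148 (p = 0.00114). Within libraries with and without Y chromosome counts, r was near 0 for both: -0.0340 and -0.0372 for Arntl, 0.0193 and -0.0622 for Dbp. For Tef it was -0.463 and -0.335. Progenitor markers had r = -0.307 with Tef and -0.272 with Per3 (each p = 1e-05), mesothelial markers -0.2001 with Dbp (p = 2e-05) and endothelial markers -0.299 with Ciart (p = 1e-05). The endothelial value with Ciart was -0.414 in libraries with Y counts and -0.132 in those without. The adipocyte score had r from -0.184 (Ciart) to 0.220 (Tef). In those 2 sets it was -0.417 and -0.028 for Ciart, and 0.236 and 0.183 for Tef. Of the 8 macrophage markers, 3 fell with Arntl and 5 rose with Dbp in the edgeR fits, against 19.6% and 26.6% of all genes. With adipocyte and macrophage scores in those fits, all 9 clock genes passed on Arntl, beside 4056 of all 18379 genes. On Dbp 8 of 9 passed, beside 6328 of all genes. With adipocyte and macrophage scores taken out of every gene, the opposition to Arntl was no smaller: r was -0.741 for Tef, -0.725 for Per3, -0.724 for Nr1d2 and -0.765 for Dbp. The other scores were not taken out, and their part was not tested.

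The relation to mouse number, the only order of animals in the labels, was fitted over all genes with library number in the model. Mouse number was associated with 23.7% of genes at an adjusted p below 0.05, in either direction (2149 rose and 2213 fell), and with 1 of the 10 clock genes. Npas2 was that gene, with a slope of -0.076 ± 0.022 log2 units per 100 mouse numbers (adjusted p = 0.00723). The other 9 slopes lay between -0.020 ± 0.028 (Nr1d1) and 0.016 ± 0.014 (Per1), with adjusted p from 0.431 to 0.948. With 5 degrees of freedom for the shape of the trend, 33.6% of genes and none of the 10 clock genes passed. At an unadjusted p below 0.05 there were 2, Npas2 (p = 0.032) and Per2 (p = 0.0464), beside 8209 of all 18380 genes. With 3 degrees of freedom Npas2 passed (adjusted p = 0.0335), beside 5108 of all genes. By contrast, all 7 immediate early genes rose with mouse number, and of the 15 other loop genes Bhlhe40 (0.075 ± 0.021) and Bhlhe41 (0.069 ± 0.020) rose while Rora (-0.056 ± 0.008) and Clock (-0.020 ± 0.006) fell. Among the 6 glucocorticoid induced genes 2 rose and 2 fell, and of the 9 clock-controlled genes none rose and 3 fell.

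The Npas2 slope depended on what else was in the model. Several marker lists moved with mouse number too: 3 of 5 mesothelial and 3 of 6 adipocyte progenitor markers fell, as Npas2 did, and all 5 liver markers rose. Among all 18380 genes, 2213 fell and 2149 rose. Npas2 had r = 0.225 with the mesothelial score (rho = 0.272) and 0.208 with the progenitor score (rho = 0.195), each p = 1e-05, and -0.0439 with the liver score (p = 0.343). The part of these cells in the Npas2 result was not tested. With adipocyte and macrophage scores in the model its slope was -0.065 ± 0.022 (adjusted p = 0.0233). With Xist and Y chromosome genes added the Npas2 slope was -0.045 ± 0.021 (adjusted p = 0.158), and by limma on log2 CPM it was -0.057 ± 0.024 (adjusted p = 0.0653), so the call was lost in both. Read counts from Y chromosome genes were present in 241 libraries and absent from 227, and these alternated along mouse number. In 10 blocks of 46 or 47 consecutive mice, Y counts were found in 0, 46, 2, 45, 2, 42, 8, 38, 11 and 47 libraries, in block order. The Npas2 block means, in the same order, were 3.76, 3.32, 3.59, 3.22, 3.56, 3.38, 3.51, 3.23, 3.49 and 3.15 log2 CPM. Dbp ran the other way, with block means of 1.41, 1.97, 1.81, 2.06, 1.56, 1.86, 1.75, 2.08, 1.80 and 2.09. Alternate blocks did not overlap in the means of 4 genes, and the share of all genes of which this holds was not computed. In blocks 1, 3, 5, 7 and 9 against blocks 2, 4, 6, 8 and 10, Npas2 (lowest 3.49 against highest 3.38), Tef (6.101 against 6.095) and Ciart (0.070 against 0.000015) were higher and Dbp was lower (highest 1.81 against lowest 1.86). For Tef and Ciart the nearest means were closer than 1 SE of block 1 (0.071 and 0.094), so their separation was slight. Block means of the other 6 genes overlapped.

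Within the 241 libraries with Y counts, the r of Npas2 with mouse number was -0.107, and within the 227 without it was -0.0207, against -0.110 in all (p = 0.0168; rho = -0.166, p = 0.00039). For Per1 that r was 0.179 and 0.137, against 0.106 in all (p = 0.0217; rho = 0.0601, p = 0.195). Dbp had 0.0730 and 0.0315, against 0.0902 in all (p = 0.0503; rho = 0.131, p = 0.0046). Ciart had 0.139 and 0.0797, against 0.0587 in all (p = 0.205; rho = 0.0948, p = 0.0408). The other genes had p above 0.05 for both measures, and these p-values were not adjusted. The strongest relations were of like size within both sets, while Npas2 with Per1, near 0 in all libraries, changed sign between them (0.0075 and -0.054). Arntl with Npas2 had r = 0.799 with Y counts and 0.801 without, Arntl with Dbp -0.719 and -0.793, Per3 with Tef 0.866 and 0.885, and Per1 with the glucocorticoid list 0.799 and 0.794. No test of levels was made between the sets, which the labels do not name. In size, the sets with and without Y counts match the males and females that the study reports for adipose tissue. On that match, the alternating blocks of mice were largely of a single sex each. The part of sex in the block means of Npas2, Dbp, Tef and Ciart was not tested.

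**Figure D5:**
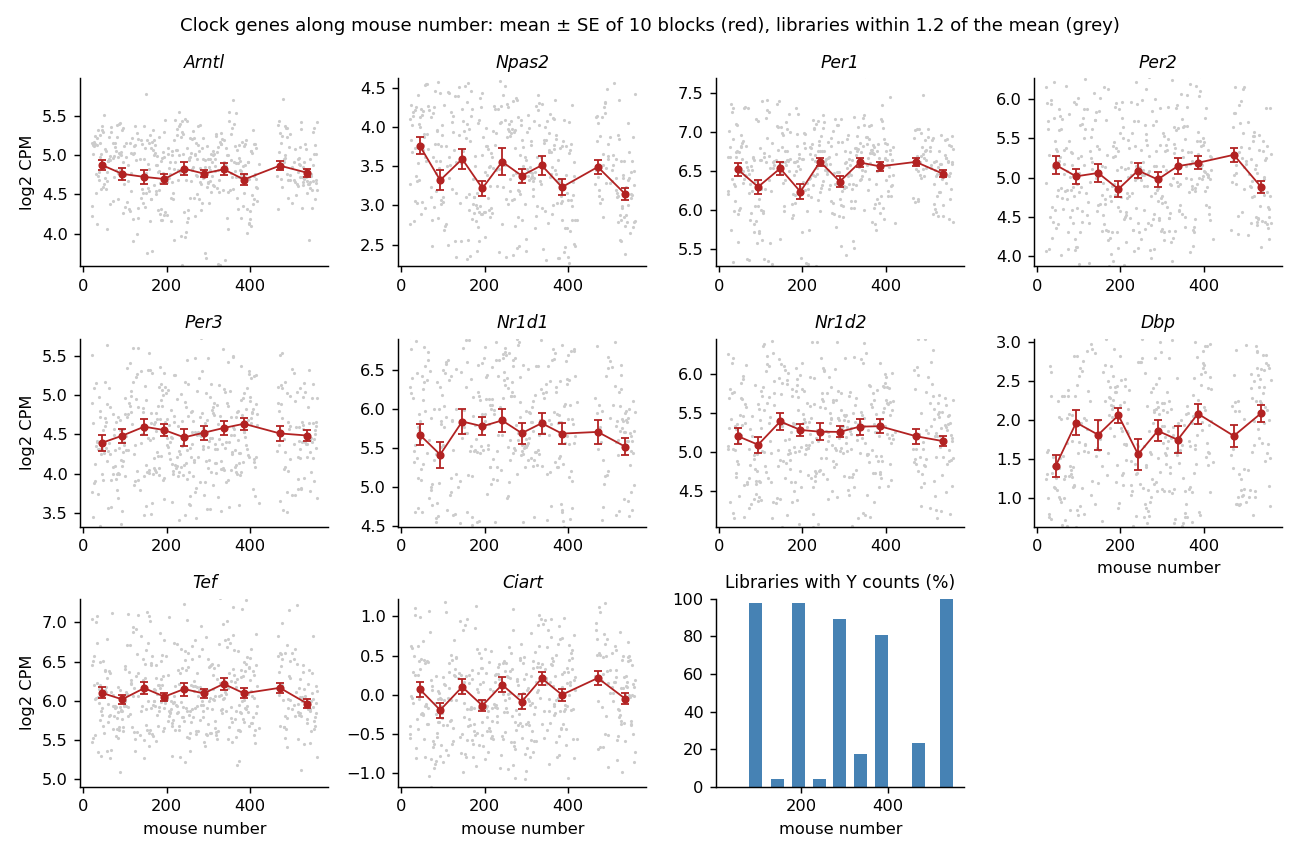
Log2 CPM of each clock gene along mouse number. Red points with bars are the mean ± SE of 10 blocks of 46 or 47 mice, grey points are libraries within 1.2 of the mean, and the blue bars give the percentage of libraries in each block with Y chromosome counts. Npas2, Tef and Ciart zigzag one way between alternate blocks and Dbp the other, and Arntl stays between 4.69 and 4.88.

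Block means otherwise covered little of the spread. The mean of Arntl ranged over 0.19 log2 units between blocks, against a median SD of 0.47 within a block, and blocks accounted for 1.74% of its variance. The largest shares were 6.91% for Per1, 5.41% for Npas2, 4.98% for Ciart and 4.22% for Dbp, and the same share was not computed for other genes. The spread of Per1 within blocks itself varied, from an SD of 0.30 in the last block to 0.64 in the fourth. Mice with consecutive numbers, of which there were 444 pairs, were compared as a description, with no test. Their r was 0.232 for Per1 and 0.110 for Per2, and between 0.0249 (Nr1d2) and 0.0733 (Npas2) for the other 8 genes.

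Library number was associated with 0.267% of genes, 49 in all, and with none of the 10 clock genes. At an unadjusted p below 0.05 there were 2: Ciart, with a slope of -0.080 ± 0.022 log2 units per 100 library numbers (p = 0.00025, adjusted p = 0.0792), and Dbp, with -0.083 ± 0.036 (p = 0.0206, adjusted p = 0.5). By limma on log2 CPM 0 genes passed, with 1018 genes and 1 clock gene at an unadjusted p below 0.05 (1671 genes by edgeR). No gene of the 4 fixed lists of clock loop, clock-controlled, glucocorticoid induced and immediate early genes passed by edgeR.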

How the data were processed

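RNA of adipose tissue from 468 Diversity Outbred mice was sequenced by the study as polyA-selected libraries. The authors aligned read ends as single reads to a combined transcriptome of the founder strains and quantified them with EMASE through GBRS, and the deposited values are expected counts per gene, of which 66.8% were whole (tolerance 1e-06). The deposited log2 values are variance-stabilised by the authors with DESeq2. The submitters' processing notes name GRCm38 and DESeq2, and strand use in counting is not stated. A deposited sample annotation was read for names only.

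Expected counts were rounded for the models. Genes with at least 10 counts in at least 50% of libraries were kept, and log2 CPM used TMM factors (0.578 to 1.36) and a prior count of 2. The edgeR 4.0.16 quasi-likelihood test with Benjamini-Hochberg adjustment (threshold 0.05) was the main test, in R 4.3.3, with limma 3.58.1 and DESeq2 1.42.0 as alternatives, and Python 3.11.15 for correlations. SE are those of the fitted slopes. The models were tested on simulated data. All libraries form 1 group, each mouse is 1 sample, and mice were treated as independent although related. Members and lists were chosen with earlier results of these data known. Named genes were the members, genes of the fixed lists with the largest slopes or correlations or paired with a member, and the 5 genes at each end of the correlation with Arntl and with Dbp, of which some are not reported here. Promoters came from RefSeq. Total counts of 35298813 to 137760410 per library limit the precision of scarce genes such as Ciart, and alternatives in scaling, filter, covariates, tool and subsets were tried.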

Additional observations from a re-analysis of the deposited data

How the results depend on the processing

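With Xist and Y chromosome genes in the model, fewer genes passed: 2291 for mouse number, 2824 for mouse number of any shape, 3298 for Arntl and 3551 for Dbp, against 4362, 6176, 5798 and 7958. The clock genes passing for mouse number were then 0, and likewise 0 by limma on log2 CPM, where 4355 of all genes passed. The adjusted p of Npas2 ran from 0.00356 to 0.158 over the alternatives, and that of Per1 from 0.0728 to 0.5. For library number, limma called 0 genes, and without the filter 141 genes and 1 clock gene passed. A spline with 3 degrees of freedom called 1 clock gene, beside 5108 of all genes. The number of clock genes called on Arntl (9) and on Dbp (8) was the same in every alternative run. The cause of these changes was not tested.

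Of 900 pair correlations recomputed under alternatives, 840 kept their label, 51 were weaker, 1 was stronger and 8 reversed. Weaker and stronger mean only that p crossed the threshold. Of the changed labels, 56 were in blocks of 93 or 94 libraries and 4 were not. A change of sign between values that did not pass was not counted as reversed. Npas2 with Per1 was such a pair, with r = 0.0409 in all libraries and -0.0542 in those without Y counts. The sign was the same in every setting for 35 of 45 pairs. The 8 reversals, 6 of them with Per2, are given next. In the fifth block of mouse numbers r was 0.147 for Arntl and Per2, 0.229 for Npas2 and Per2, 0.0368 for Npas2 and Ciart, -0.0654 for Per2 and Nr1d2 and -0.111 for Per2 and Dbp. Per2 and Nr1d1 had r = 0.2003 in mouse number block 2 and 0.0252 in library number block 1, and Nr1d1 and Ciart had -0.0129 in library number block 4. No paired analysis was possible because all libraries form 1 group. Batch and time of harvest are not in the labels and cannot be told apart from mouse number where they follow it. Sex is not in the labels either, and the fits with Xist and Y chromosome genes are the nearest to an adjustment for it.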

Other observations

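Per1 had close company outside the clock. Among the 9467 genes compared, chosen for Per1 after its values were seen, the highest correlations of log2 CPM over 468 libraries were with Nfkbia (r = 0.747), an inhibitor of NF-kappa-B, Lrrc8a (0.709), a volume-regulated anion channel subunit, Syde2 (0.694), Ddit4 (0.682), an inhibitor of mTORC1 signalling, and Cebpd (0.676), a transcription factor of early adipogenesis. The lowest were with Hic1 (-0.588), Myct1 (-0.575), Nuak1 (-0.505), Aplnr (-0.501) and Elk3 (-0.494). These values are a description, and the points share libraries and depth.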
